A study of Mus musculus with 14 samples.

Results

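The genes of cholesterol and fatty acid synthesis were followed through 14 libraries of mouse leukemic progenitors. The set had 34 members, listed by name, among 52636 genes in the count table. They were taken in 4 branches: 5 regulators, 17 enzymes of sterol synthesis, 9 enzymes of fatty acid synthesis and 3 genes of sterol transport and efflux. All 34 were found in the table and all 34 passed the filter on low counts, which kept 11994 genes, but Scd1 passed it only through the AG120 day 14 libraries.

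The cells came from mice transplanted with I1DN leukemia, and were sorted by flow cytometry as positive for cKit and negative for CD11b. Relapse after 28 days of AG120 was sampled in 4 mice. Treatment for 5 days had 3 mice on AG120 and 3 on vehicle, and treatment for 14 days had 2 mice on AG120 and 2 on vehicle. AG120, also known as ivosidenib, inhibits mutant IDH1, the enzyme form that makes 2-hydroxyglutarate, and every group, vehicle included, carried the same I1DN leukemia. The alleles behind the name I1DN, the age of the mice and whether AG120 was still given at relapse are not stated in the labels. Each library was 1 mouse, as far as the labels say, and RNA was read from the 3′ end of transcripts, which keeps counts free of transcript length.

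Cells build cholesterol from acetyl-CoA through mevalonate, isoprenoids, squalene and lanosterol, and build fatty acids from the same acetyl-CoA through malonyl-CoA. Both branches are switched on by the SREBP transcription factors, encoded by Srebf1, which acts mostly on fatty acid genes, and Srebf2, which acts mostly on sterol genes. SCAP carries these proteins to the Golgi apparatus, where proteases free the active part, and the INSIG proteins hold SCAP back in the endoplasmic reticulum when sterols are plentiful. When cholesterol is in excess, LXR receptors switch on the exporters ABCA1 and ABCG1.

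Total counts per library were 4995738 to 8691708. Ribosomal RNA gene models took 50.9% to 74.8% of them, and 1259982 to 3358874 counts remained outside them. At this depth 3 counts, the limit that a count of 0 allows, were worth 0.330 to 0.895 CPM, the count normalised to the TMM-scaled library size, and this limit covers counting error only. The relapse libraries were not alike: replicates 1 and 4 correlated at r = 0.972 and replicates 2 and 3 at r = 0.957 in log2 CPM across genes, against 0.920 to 0.935 for the other relapse pairs. Of the genes behind the sort, Kit was at 18.9, 50.2, 52.0 and 19.2 CPM in relapse replicates 1 to 4, at 23.6 to 33.1 CPM in AG120 day 5, at 33.5 to 37.8 CPM in vehicle day 5, at 11.6 CPM in both AG120 day 14 libraries and at 35.0 and 36.8 CPM in vehicle day 14. Itgam, which encodes CD11b, was detected in every library, at 2.56 to 53.5 CPM. Kit and Itgam summed to 26.2 to 36.1 CPM in AG120 day 5, against 47.8 to 49.0 CPM in vehicle day 5. The sum was 17.6 to 19.6 CPM in AG120 day 14, 51.3 to 53.0 CPM in vehicle day 14 and 54.7 to 72.4 CPM in relapse. The sort kept cells with the product of Kit and removed those with the product of Itgam, so this sum mixes both and does not measure the sort. At day 5 the log2 differences of AG120 from vehicle were −0.41 for Kit and −2.02 for Itgam. At day 14 they were −1.63 for Kit and −1.19 for Itgam. Of these 2 genes, 1 passed as lower in AG120 than in vehicle at day 5 and 1 at day 14. Against the AG120 groups, both Kit and Itgam passed as higher in relapse. The summed level of 16 erythroid markers was 60.3 to 245 CPM in relapse, 939 to 1019 CPM in AG120 day 5, 158 to 174 CPM in vehicle day 5, 1939 to 2014 CPM in AG120 day 14 and 166 to 178 CPM in vehicle day 14. All 16 were detected in every group. The summed level of 10 neutrophil markers was 292 to 1343 CPM in relapse, 125 to 214 CPM in AG120 day 5, 627 to 825 CPM in vehicle day 5, 1328 to 1738 CPM in AG120 day 14 and 1033 to 1250 CPM in vehicle day 14. In these bulk libraries fewer cells of a type and less RNA per cell cannot be told apart.

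The members differed widely in level. Scd2, a stearoyl-CoA desaturase that puts the first double bond into saturated fatty acids, had a median of 112 CPM over the 14 libraries. It was followed by Srebf2 at 65.8 CPM, Hmgcs1 at 45.0 CPM, Fasn at 40.1 CPM and Acly at 39.3 CPM. Fasn encodes fatty acid synthase, and Acly the ATP citrate lyase that supplies cytosolic acetyl-CoA. Srebf1 had a median of 10.9 CPM. Nsdhl, Dhcr7, Fads2, Lss and Mvk had medians of 1.77 to 2.74 CPM, Abca1 had 0.756 CPM and Scd1 had 0 CPM, so their changes were measured from few counts.

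**Figure D1:**
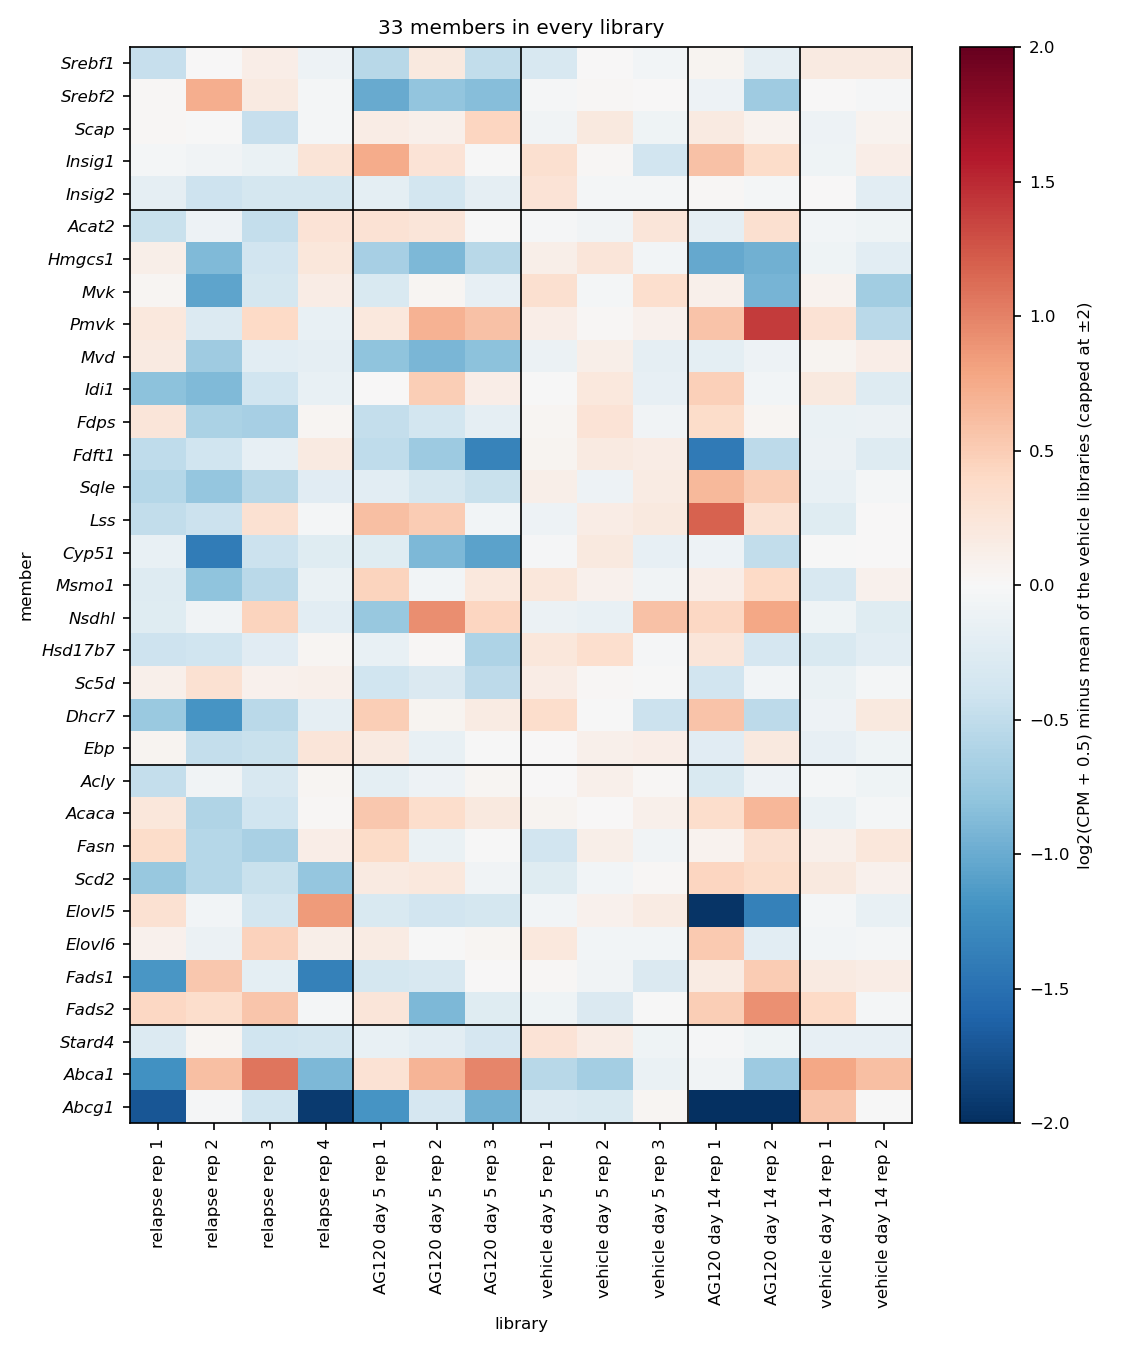
Level of 33 members in each of the 14 libraries, as log2(CPM + 0.5) minus the mean of that value over the 5 vehicle libraries, with members in rows by branch and libraries in columns by group; the colour scale is capped at 2. Srebf2 and Mvd are blue in the 3 AG120 day 5 libraries, Elovl5 and Abcg1 are darkest blue in the 2 AG120 day 14 libraries, and Scd2 is blue in the 4 relapse libraries.

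After 5 days of AG120, Srebf2 and 5 sterol synthesis enzymes were lower than in vehicle: Hmgcs1, Mvd, Fdft1, Cyp51 and Sc5d. None of the 34 members was higher, and no member of the fatty acid or the transport branch passed the test. These counts depend on the libraries in the fit: with only the day 5 libraries 11 of 32 members were lower, among them Elovl5 of the fatty acid branch and Stard4 and Abcg1 of the transport branch, and Pmvk was higher. In that fit 28.2% of all genes were lower and 28.4% were higher. The 6 lower members were 17.6% of the 34, and the 5 enzymes were 29.4% of the 17 sterol enzymes. Over all genes tested, 19.3% were lower and 20.1% were higher at day 5, so the members' count of lower genes was near the background. All tests here are edgeR's quasi-likelihood tests, and adjusted p means Benjamini-Hochberg adjusted across every gene in the fit, with 0.05 as the threshold.

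The promoter sequences of the members that were lower at day 5 are shown as a description, since their count was near the background. Most of them belong to a pathway with known regulatory letters, and shared control of these genes was not tested. Sequences came from RefSeq (GRCm38.p6), where 26 of the 34 members and 5 of these 6 were matched by symbol. Hmgcs1 is given with the 250 bases before its RefSeq start (chr13:119690101-119690350, plus strand). The others have the 150 bases before theirs: Srebf2 (chr15:82147119-82147268, plus strand), Mvd (chr8:122443423-122443572, minus strand), Cyp51 (chr5:4104698-4104847, minus strand) and Sc5d (chr9:42264301-42264450, minus strand). Each reads 5′ to 3′ on the gene's strand, and capitals mark the letters of the sterol response motif TCACNCCAC and of the CCAAT box, which appears as ATTGG when it lies on the other strand.
Srebf2: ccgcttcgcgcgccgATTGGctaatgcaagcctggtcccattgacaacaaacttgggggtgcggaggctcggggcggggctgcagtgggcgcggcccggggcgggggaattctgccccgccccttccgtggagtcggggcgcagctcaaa
Hmgcs1: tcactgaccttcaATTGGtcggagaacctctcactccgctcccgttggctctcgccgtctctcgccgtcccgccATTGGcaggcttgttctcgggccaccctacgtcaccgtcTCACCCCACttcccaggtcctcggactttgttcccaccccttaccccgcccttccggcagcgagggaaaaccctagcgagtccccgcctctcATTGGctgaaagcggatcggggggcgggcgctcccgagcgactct
Mvd: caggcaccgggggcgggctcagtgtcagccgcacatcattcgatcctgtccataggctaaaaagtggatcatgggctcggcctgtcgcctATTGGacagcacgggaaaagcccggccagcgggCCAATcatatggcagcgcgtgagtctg
Cyp51: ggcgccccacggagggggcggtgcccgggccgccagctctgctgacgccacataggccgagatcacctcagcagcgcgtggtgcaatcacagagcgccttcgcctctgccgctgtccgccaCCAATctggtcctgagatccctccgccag
Sc5d: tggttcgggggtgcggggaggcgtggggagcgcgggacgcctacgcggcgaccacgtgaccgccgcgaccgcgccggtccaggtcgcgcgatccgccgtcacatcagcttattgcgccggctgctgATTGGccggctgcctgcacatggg

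The sterol response motif TCACNCCAC, searched on both strands, lay in the 250 bases before the start of 1 of the 26 matched members, Hmgcs1, where its first base was 137 bases before the start. That is 3.85% of the members, against 1.22% of all genes with a promoter in the table. The shorter core CACNCCAC, which the longer motif contains, was found in 3 of 26 members (11.5%), namely Acat2, Hmgcs1 and Insig1, against 6.05% of all genes. The CCAAT box, searched as CCAAT on both strands, lay in the same window of 19 of 26 members (73.1%), against 37.5% of all genes. The 5 promoters printed above all held at least 1. Only these exact letters were searched, so a promoter without them cannot be said to lack a sterol response element. These matches describe letters only, and they were not tested.

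Srebf2 (chr15:82147181-82205379, GRCm38) was at 32.9, 38.5 and 37.0 CPM in the AG120 day 5 libraries, against 65.9, 68.2 and 67.5 CPM in the vehicle day 5 libraries. The groups did not overlap, and each was tight. Its level differed by a log2 fold change of −0.90 ± 0.19 (SE), with an edgeR adjusted p of 0.00122. Srebf1 (chr11:60199089-60222581) was at 7.47, 12.8 and 7.82 CPM in AG120 day 5, against 8.83, 11.3 and 10.7 CPM in vehicle day 5. These groups overlapped, and the log2 difference of −0.14 ± 0.21 (SE) did not pass the test (adjusted p = 0.631). Among the other regulators, Scap, Insig1 and Insig2 did not pass, with log2 differences of 0.22, 0.40 and −0.33.

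Hmgcs1 (chr13:119690379-119708260) encodes the cytosolic HMG-CoA synthase, which condenses acetyl-CoA and acetoacetyl-CoA at the head of the pathway. It was at 34.7, 29.4 and 37.4 CPM in AG120 day 5, against 60.2, 65.6 and 53.2 CPM in vehicle day 5. The groups did not overlap, and the log2 fold change was −0.82 ± 0.22 (SE; adjusted p = 0.00728). Mvd (chr8:122433601-122443422) encodes the decarboxylase that turns diphosphomevalonate into isopentenyl diphosphate. It was at 5.33, 4.87 and 5.27 CPM in AG120 day 5, against 8.83, 10.5 and 8.47 CPM in vehicle day 5, again without overlap. The log2 fold change was −0.84 ± 0.21 (SE; adjusted p = 0.00494). Fdft1 (chr14:63145150-63179578) encodes squalene synthase, which commits farnesyl diphosphate to sterols. It was at 7.77, 6.55 and 4.15 CPM in AG120 day 5, against 11.7, 12.8 and 12.4 CPM in vehicle day 5. It had the lowest log2 fold change among the members that passed, −0.996 ± 0.249 (SE; adjusted p = 0.00457).

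Cyp51, the lanosterol 14-alpha-demethylase, averaged 16.5 ± 5.41 CPM in AG120 day 5 and 27.2 ± 3.52 CPM in vehicle day 5 (SD, n = 3 each), with a log2 fold change of −0.71 ± 0.27 (SE; adjusted p = 0.0473). Sc5d, a late desaturase of the sterol ring, averaged 8.21 ± 0.700 CPM in AG120 day 5 and 11.5 ± 0.655 CPM in vehicle day 5 (SD, n = 3 each), with a log2 fold change of −0.48 ± 0.16 (SE; adjusted p = 0.0221). Both calls were less firm than the 4 above. Only the day 5 libraries were left out in turn here. Cyp51 lost its call without any 1 of them except AG120 day 5 replicate 1, with an adjusted p of up to 0.172. Sc5d lost its call without AG120 day 5 replicate 1 or 3, without vehicle day 5 replicate 1, and with no filter on low counts. Its adjusted p was then up to 0.0874. Srebf2, Hmgcs1, Mvd and Fdft1 passed in all 13 alternatives tried for this comparison.

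The remaining 12 sterol enzymes at day 5 were spread on both sides of 0. Sqle, the squalene epoxidase and a rate-limiting step after squalene, was at 12.0, 10.9 and 10.2 CPM in AG120 day 5, against 15.2, 13.04 and 15.8 CPM in vehicle day 5, a log2 difference of −0.41 ± 0.16 (SE) that did not pass (adjusted p = 0.0536). Pmvk, the phosphomevalonate kinase that acts just before Mvd, had the highest log2 difference of the branch, 0.45, and did not pass either. Over the 17 sterol enzymes the median log2 difference was −0.41, beside −0.00 over all genes tested. Over the 9 fatty acid genes 4 values were above 0 and 4 were below, and Scd1 had no count in either group.

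4 of the genes above share their 3′ end with a gene on the opposite strand. Rai1 covers the 3′ end of Srebf1 (109 shared bases), Gm20388 covers the whole of Mvd, Ctsb covers the 3′ end of Fdft1 (774 bases) and Akap9 that of Cyp51 (166 bases). Whether counting used strand is not given in the sources used here, so the values of these members are uncertain. The partners' log2 differences at day 5 were −0.73 for Rai1, −0.58 for Gm20388, −0.45 for Ctsb and −0.60 for Akap9. The part of the partners in the members' changes was not tested. Of the 16 erythroid markers 11 were higher in AG120 day 5 than in vehicle, and 4 of 10 neutrophil markers and 4 of the 6 monocyte markers tested were lower. The monocyte list summed to 15.1 to 17.8 CPM in AG120 day 5, against 50.3 to 69.5 CPM in vehicle day 5. For T, NK and B cells 2 of the 2 markers tested were lower. That list summed to 10.4 to 13.3 CPM in AG120 day 5, against 38.2 to 47.5 CPM in vehicle day 5. The 1 stromal and endothelial marker tested did not pass. The ribosomal RNA share was 62.5% to 65.3% in AG120 day 5, against 50.9% to 59.8% in vehicle day 5, without overlap. With ribosomal RNA gene models removed before the fit, 8 members were lower and 0 higher. The share of all genes called in that fit is not given here, so this count has no background. The part of the marker lists in the lower sterol genes was not tested.

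After 14 days of AG120, 2 of 33 members were higher than in vehicle and 3 were lower. Scd1 is left out of these counts and described apart, because only the AG120 day 14 libraries brought it past the filter. Pmvk and Sqle, both of the sterol branch, were higher. Hmgcs1, the fatty acid elongase Elovl5 and the cholesterol exporter Abcg1 were lower. The higher members were 6.06% and the lower 9.09% of the 33, against 16.8% of all genes tested that were higher and 17.9% that were lower, so the members' share was below the background in both directions. No regulator passed.

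Srebf2 was at 62.7 and 40.6 CPM in the 2 AG120 day 14 libraries, against 67.5 and 65.6 CPM in the 2 vehicle day 14 libraries. Replicate 1 lay close to vehicle and replicate 2 near the AG120 day 5 libraries, and the log2 difference of −0.38 ± 0.23 (SE) did not pass (adjusted p = 0.218). Srebf1 was at 11.6 and 9.81 CPM in AG120 day 14, against 12.7 CPM in both vehicle day 14 libraries, a log2 difference of −0.26 ± 0.27 (SE; adjusted p = 0.487). Hmgcs1 was at 26.9 and 28.2 CPM in AG120 day 14, against 52.2 and 47.5 CPM in vehicle day 14. Its log2 fold change of −0.85 ± 0.28 (SE; adjusted p = 0.0252) was close to that at day 5, but the call was lost when any of the 4 day 14 libraries was left out, with an adjusted p of up to 0.117.

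Pmvk (chr3:89454541-89469013) was at 11.3 and 20.4 CPM in AG120 day 14, against 9.23 and 4.98 CPM in vehicle day 14. The groups did not overlap, but replicates differed within both. Its log2 fold change was 1.19 ± 0.32 (SE; adjusted p = 0.00923), and it was 0.67 without AG120 day 14 replicate 2 and 0.80 without vehicle day 14 replicate 2, where the call was lost. Sqle (chr15:59315077-59331192) was at 22.4 and 20.0 CPM in AG120 day 14, against 12.6 and 13.7 CPM in vehicle day 14, and these levels were higher than in any other library. The change was 0.68 ± 0.20 on the log2 scale (SE; adjusted p = 0.0131), and the call was lost without AG120 day 14 replicate 1, without vehicle day 14 replicate 1 and with no filter on low counts, with an adjusted p of up to 0.0977.

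Scd1 (chr19:44394455-44407879), the stearoyl-CoA desaturase of liver and fat tissue, had 20 and 18 counts in AG120 day 14, or 5.97 and 3.60 CPM, and no count in the 12 other libraries. Its mean of 4.79 CPM in AG120 day 14 was at least 11.2-fold higher than the 0.427 CPM that 3 counts per library allowed in vehicle day 14. These levels are a description, with no test, since a gene kept through 1 group alone had to differ there. The related gene Scd2 was at 154 and 147 CPM in AG120 day 14, against 131 and 120.9 CPM in vehicle day 14, and its log2 difference of 0.25 ± 0.15 (SE) did not pass (adjusted p = 0.204). Scd1 is abundant in adipocytes, and 6 of their markers were read beside it, a list added after the data were seen. In AG120 day 14 Adipoq, Plin1, Cidec, Lep and Cfd were at 0 and the list summed to 0 to 0.2 CPM, against 0.415 to 0.586 CPM in vehicle day 14, and their part in the Scd1 level was not tested.

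Elovl5 (chr9:77917364-77984519) lengthens polyunsaturated fatty acids. It was at 5.07 and 8.01 CPM in AG120 day 14, against 20.7 and 19.1 CPM in vehicle day 14. The groups lay far apart, with a log2 fold change of −1.56 ± 0.35 (SE; adjusted p = 0.00259). Abcg1 (chr17:31057675-31117988) had 1 and 3 counts in AG120 day 14, or 0.298 and 0.600 CPM, against 56 and 39 counts, or 8.20 and 5.39 CPM, in vehicle day 14. The ratio of the summed counts per library size was 0.0709, with an exact 95% counting interval of 0.0189 to 0.188, and the adjusted p was 0.00188. Both calls held in all 11 alternatives tried. Abca1, the other exporter, did not pass: it was at 0.597 and 0.2 CPM in AG120 day 14, against 1.47 and 1.24 CPM in vehicle day 14. Those AG120 levels lay under the 0.895 and 0.600 CPM that 3 counts were worth there. At day 5 Abca1 lay the other way, at 0.914 to 1.76 CPM in AG120, against 0.221 to 0.550 CPM in vehicle, and did not pass either.

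Among the other 14 sterol enzymes at day 14 Lss had a log2 difference of 1.02 and Nsdhl of 0.95, and Fdft1 had −0.71; none of these passed. Lss encodes lanosterol synthase, which closes the sterol rings, and was at 5.97 and 3.00 CPM in AG120 day 14, against 1.90 and 2.35 CPM in vehicle day 14. Acaca, the acetyl-CoA carboxylase that makes malonyl-CoA, was at 17.3 and 21.6 CPM in AG120 day 14, against 12.3 and 13.1 CPM in vehicle day 14, and just missed the threshold (log2 difference 0.62 ± 0.24, SE; adjusted p = 0.0527). At day 14, 15 of the 16 erythroid markers were higher in AG120 than in vehicle and 1 of 10 neutrophil markers was lower. Of the markers that passed the filter, 2 of 6 for monocytes, 2 of 2 for T, NK and B cells and 1 of 1 for stromal and endothelial cells were lower. The monocyte list summed to 25.7 to 27.2 CPM in AG120 day 14, against 58.5 to 68.1 CPM in vehicle day 14. The stromal and endothelial list summed to 0 to 1.79 CPM in AG120 day 14, with Cdh5 and Kdr at 0, against 4.10 to 6.36 CPM in vehicle day 14, with Col1a2, Cdh5 and Kdr at 0. AG120 day 14 replicate 1 stood apart in depth, with 74.8% ribosomal RNA and a TMM factor of 0.672, the highest and the lowest of the 14 libraries. The part of these values in the day 14 changes was not tested.

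**Figure D2:**
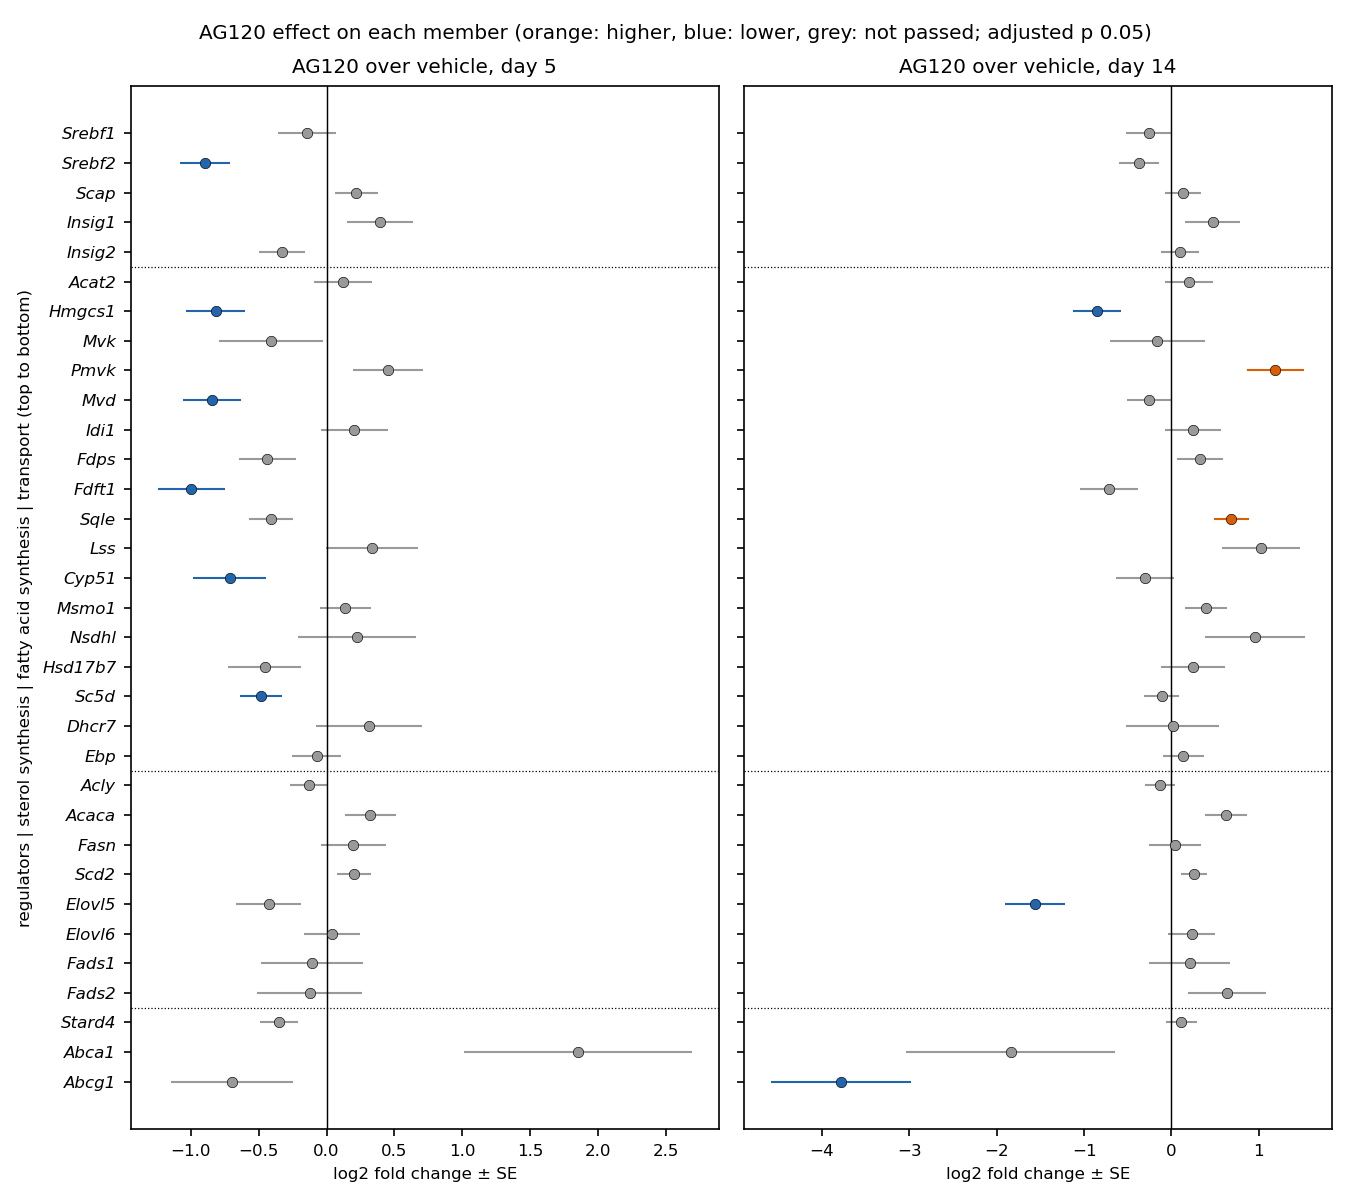
Log2 fold change of AG120 over vehicle for 33 members at day 5 (left) and day 14 (right), with bars of 1 SE, from the edgeR fit over 14 libraries; orange marks higher, blue lower and grey not passed at an adjusted p of 0.05, and Scd1 is left out because its vehicle libraries are at 0. Blue points at day 5 lie between −0.996 and −0.48; at day 14 Pmvk and Sqle are orange and Hmgcs1, Elovl5 and Abcg1 blue.

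The difference between the day 14 and the day 5 effects was tested for each member, and none passed. Over all genes tested, 0.208% had a higher and 0.725% a lower effect at day 14. The lowest adjusted p among the members was 0.0519, for Sqle, whose effect was 1.09 ± 0.26 (SE) higher on the log2 scale at day 14. At an unadjusted p under 0.05 there were 5 members, a number without a background, since all genes were not counted at that threshold. DESeq2 called 1 member, which was Sqle, and limma-voom called 0. A fit on the AG120 and vehicle libraries alone called 4, Fdps and Sqle with a higher and Elovl5 and Abcg1 with a lower effect at day 14, where 3.05% and 4.39% of all genes did so. Srebf2 differed by 0.52 ± 0.29 (SE; adjusted p = 0.514) and Srebf1 by −0.12 ± 0.34 (SE; adjusted p = 0.939). In the sterol branch 15 of 17 enzymes had a higher log2 difference at day 14 than at day 5, against 45.1% of all genes. The median was 0.37, beside −0.06 over all genes.

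The vehicle groups enter that difference. In vehicle alone, 15 of 17 sterol enzymes were lower at day 14 than at day 5, with a median log2 difference of −0.18. Over all genes tested 50.6% of these differences were below 0, with a median of −0.003. None of the 17 passed, and no member passed at an unadjusted p under 0.05. Neither DESeq2 nor limma-voom called a member, and over all genes tested 0% were higher and 0% were lower. Srebf2 averaged 66.6 ± 1.33 CPM in vehicle day 14 (SD, n = 2) and 67.2 ± 1.17 CPM in vehicle day 5 (SD, n = 3), a log2 difference of −0.01. Srebf1 averaged 12.7 ± 0.0215 CPM in vehicle day 14 (SD, n = 2) and 10.3 ± 1.27 CPM in vehicle day 5 (SD, n = 3), a log2 difference of 0.31.

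**Figure D3:**
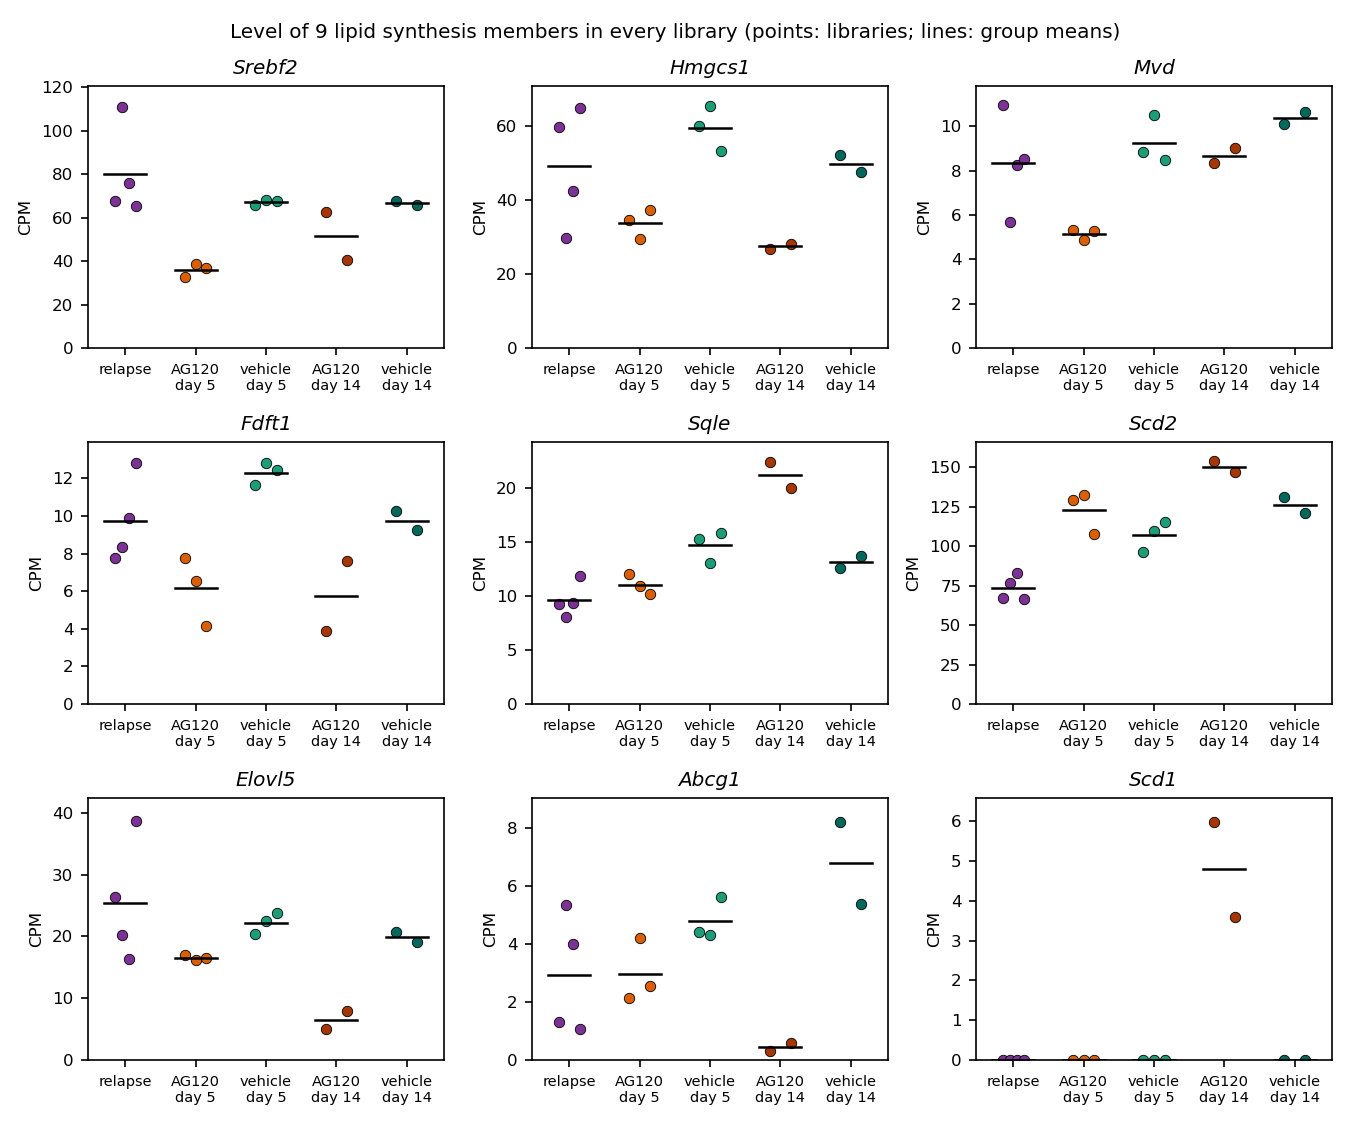
CPM of 9 members in each library (points) with group means (lines), for relapse, AG120 day 5, vehicle day 5, AG120 day 14 and vehicle day 14. Srebf2 is at 32.9 to 38.5 CPM in AG120 day 5, below all other libraries, Scd2 is at 66.3 to 83.2 CPM in relapse, below all other libraries, and Scd1 has counts in AG120 day 14 alone.

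In relapse 1 member differed from the mean of the vehicle groups, Scd2, which was lower. No member was higher. Over all genes tested, 0.1% were higher and 0.0834% were lower, so the comparison called few genes of any kind. At an unadjusted p under 0.05 there were 8 members, but all genes were not counted at that threshold, so this number has no background. DESeq2 and limma-voom also called 1 member each.

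Scd2 (chr19:44293674-44306864) was at 67.4, 76.4, 83.2 and 66.3 CPM in relapse, against 96.1, 109 and 115 CPM in vehicle day 5 and 131 and 120.9 CPM in vehicle day 14. All 4 relapse libraries lay below all 5 vehicle libraries, in both pairs of like relapse replicates. The log2 fold change was −0.66 ± 0.10 (SE; adjusted p = 0.00896), and it stayed between −0.73 and −0.62 when single libraries were left out. The call was lost without vehicle day 14 replicate 1 (adjusted p = 0.0937) and with only the relapse and vehicle groups in the fit (adjusted p = 0.0617).

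Srebf2 was at 67.8, 111, 76.2 and 65.2 CPM in relapse, a log2 difference from vehicle of 0.26 ± 0.15 (SE; adjusted p = 0.531). Replicates 2 and 3 were above every vehicle library, and replicates 1 and 4 were at the vehicle level. Srebf1 was at 7.93, 11.2, 12.2 and 10.3 CPM in relapse, a log2 difference of −0.13 ± 0.17 (SE; adjusted p = 0.821). In the sterol branch 14 of 17 log2 differences were below 0, against 47.2% over all genes. Their median was −0.19, beside 0.02 over all genes, and none passed. Sqle was at 9.26, 8.02, 9.36 and 11.9 CPM in relapse, under every vehicle library, at a log2 difference of −0.52 ± 0.14 (SE; adjusted p = 0.127).

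The relapse libraries differed among themselves in several members. Hmgcs1 was at 59.9, 29.8, 42.5 and 65.1 CPM in replicates 1 to 4, so that replicate 2 was at the AG120 level and replicates 1 and 4 were at the vehicle level. Fasn was at 48.7, 25.1, 23.8 and 41.2 CPM. Fads1, the delta-5 desaturase of polyunsaturated fatty acids, was at 3.59, 12.8, 7.57 and 3.12 CPM, and Abcg1 was at 1.32, 5.35, 3.99 and 1.08 CPM. Fads1 and Abcg1 were thus higher, and Fasn lower, in replicates 2 and 3 than in replicates 1 and 4. Kit was higher and Itgam lower in the same replicates: Itgam was at 53.5, 13.9, 16.1 and 35.5 CPM in replicates 1 to 4. No test was made between these replicates, since the labels do not separate them.

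Against the mean of the AG120 groups, relapse had 5 members higher and 8 lower. Srebf2, Hmgcs1, Fdft1, Sc5d and Elovl5 were higher, and Pmvk, Idi1, Sqle, Lss, Msmo1, Dhcr7, Acaca and Scd2 were lower. That is 14.7% and 23.5% of the members, against 27.9% of all genes that were higher and 26.1% that were lower, so the count of higher members was below the background and that of lower members near it. In the sterol branch 3 of 17 were higher and 6 of 17 were lower. This comparison shares its AG120 libraries with the comparisons at days 5 and 14, and the comparison of relapse with vehicle shares the vehicle libraries with them, so the lists cannot count as independent of each other.

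Srebf2, at 67.8, 111, 76.2 and 65.2 CPM in relapse, lay above all AG120 libraries (32.9 to 38.5 CPM at day 5, 62.7 and 40.6 CPM at day 14). Its log2 fold change was 0.89 ± 0.15 (SE; adjusted p = 0.000134). Srebf1 differed by 0.07 ± 0.18 (SE; adjusted p = 0.758). Hmgcs1 was higher by 0.69 ± 0.18 (log2, SE; adjusted p = 0.00479), although relapse replicate 2, at 29.8 CPM, lay within the AG120 range of 26.9 to 37.4 CPM. Elovl5 was at 26.4, 20.3, 16.4 and 38.7 CPM in relapse, against 17.1, 16.1 and 16.4 CPM in AG120 day 5 and 5.07 and 8.01 CPM in AG120 day 14. Its log2 fold change of 1.28 ± 0.22 (SE; adjusted p = 0.000143) came with the widest gap at day 14, and relapse replicate 3 was at the AG120 day 5 level.

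Sc5d was at 11.9, 13.7, 11.7 and 11.9 CPM in relapse, against 7.51 to 8.90 CPM in AG120 day 5 and 8.36 and 10.6 CPM in AG120 day 14, without overlap (log2 fold change 0.47 ± 0.13, SE; adjusted p = 0.00736). Fdft1 was at 7.75, 8.37, 9.91 and 12.8 CPM in relapse, against 4.15 to 7.77 CPM in AG120 day 5 and 3.88 and 7.61 CPM in AG120 day 14. Its log2 fold change was 0.70 ± 0.22 (SE; adjusted p = 0.0125), and it no longer passed when AG120 day 14 replicate 1 was left out (adjusted p = 0.0681) or relapse replicate 4 was left out (adjusted p = 0.0542).

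Of the lower members, Scd2 had the lowest adjusted p of the 34. Its 66.3 to 83.2 CPM in relapse lay below the 108 to 132 CPM of AG120 day 5 and the 154 and 147 CPM of AG120 day 14, with a log2 fold change of −0.89 ± 0.10 (SE; adjusted p = 2.26e-06). Acaca was at 15.9, 8.73, 10.2 and 13.8 CPM in relapse, against 20.0, 17.3 and 15.5 CPM in AG120 day 5 and 17.3 and 21.6 CPM in AG120 day 14. The log2 fold change was −0.61 ± 0.16 (SE; adjusted p = 0.00435), and relapse replicate 1 lay within the AG120 range. Idi1, the isomerase of isopentenyl diphosphate, was at 3.59, 3.39, 4.95 and 5.99 CPM in relapse, against 6.70, 9.58 and 7.35 CPM in AG120 day 5 and 9.55 and 6.40 CPM in AG120 day 14. It did not overlap, with a log2 fold change of −0.78 ± 0.22 (SE; adjusted p = 0.00730).

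Msmo1, a methylsterol oxidase, averaged 13.3 ± 2.83 CPM in relapse (SD, n = 4), against 20.8 ± 3.70 CPM in AG120 day 5 (SD, n = 3) and 21.8 ± 2.91 CPM in AG120 day 14 (SD, n = 2), without overlap. Sqle, at 8.02 to 11.9 CPM in relapse, against 10.2 to 12.0 CPM in AG120 day 5 and 22.4 and 20.0 CPM in AG120 day 14, had a log2 fold change of −0.66 ± 0.14 (SE; adjusted p = 0.000806). Relapse overlapped AG120 day 5 and lay far under AG120 day 14. Pmvk had a log2 fold change of −0.75 ± 0.22 (SE; adjusted p = 0.00859), and leaving out AG120 day 14 replicate 2 ended the call (adjusted p = 0.104). Lss was at 1.51, 1.6, 3.03 and 2.28 CPM in relapse, against 3.81, 3.53 and 2.24 CPM in AG120 day 5 and 5.97 and 3.00 CPM in AG120 day 14, a log2 fold change of −0.79 ± 0.30 (SE; adjusted p = 0.0347). Dhcr7, a reductase at the end of cholesterol synthesis, was at 1.13, 0.713, 1.38 and 1.92 CPM in relapse, against 3.35, 2.35 and 2.56 CPM in AG120 day 5 and 3.58 and 1.40 CPM in AG120 day 14, a log2 fold change of −0.94 ± 0.37 (SE; adjusted p = 0.0423). Both overlapped the AG120 range, both had few counts, and each lost its call in 11 of 16 alternatives. Scd1 had no count in relapse, and its mean in AG120 day 14 was at least 10.2-fold higher than the 0.468 CPM that 3 counts per library allowed there.

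Of the 16 erythroid markers 12 were lower in relapse than in the AG120 groups, none differed from vehicle in the test, and their part in the members' changes was not tested. In the same comparison with AG120, 3 of 10 neutrophil markers and 4 of the 6 monocyte markers tested were higher. The monocyte list summed to 51.9 to 162 CPM in relapse, against 15.1 to 17.8 CPM in AG120 day 5 and 25.7 to 27.2 CPM in AG120 day 14. Also higher were 2 of the 2 T, NK and B cell markers and the 1 stromal and endothelial marker tested. The part of these lists in the members' changes was not tested.

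**Figure D4:**
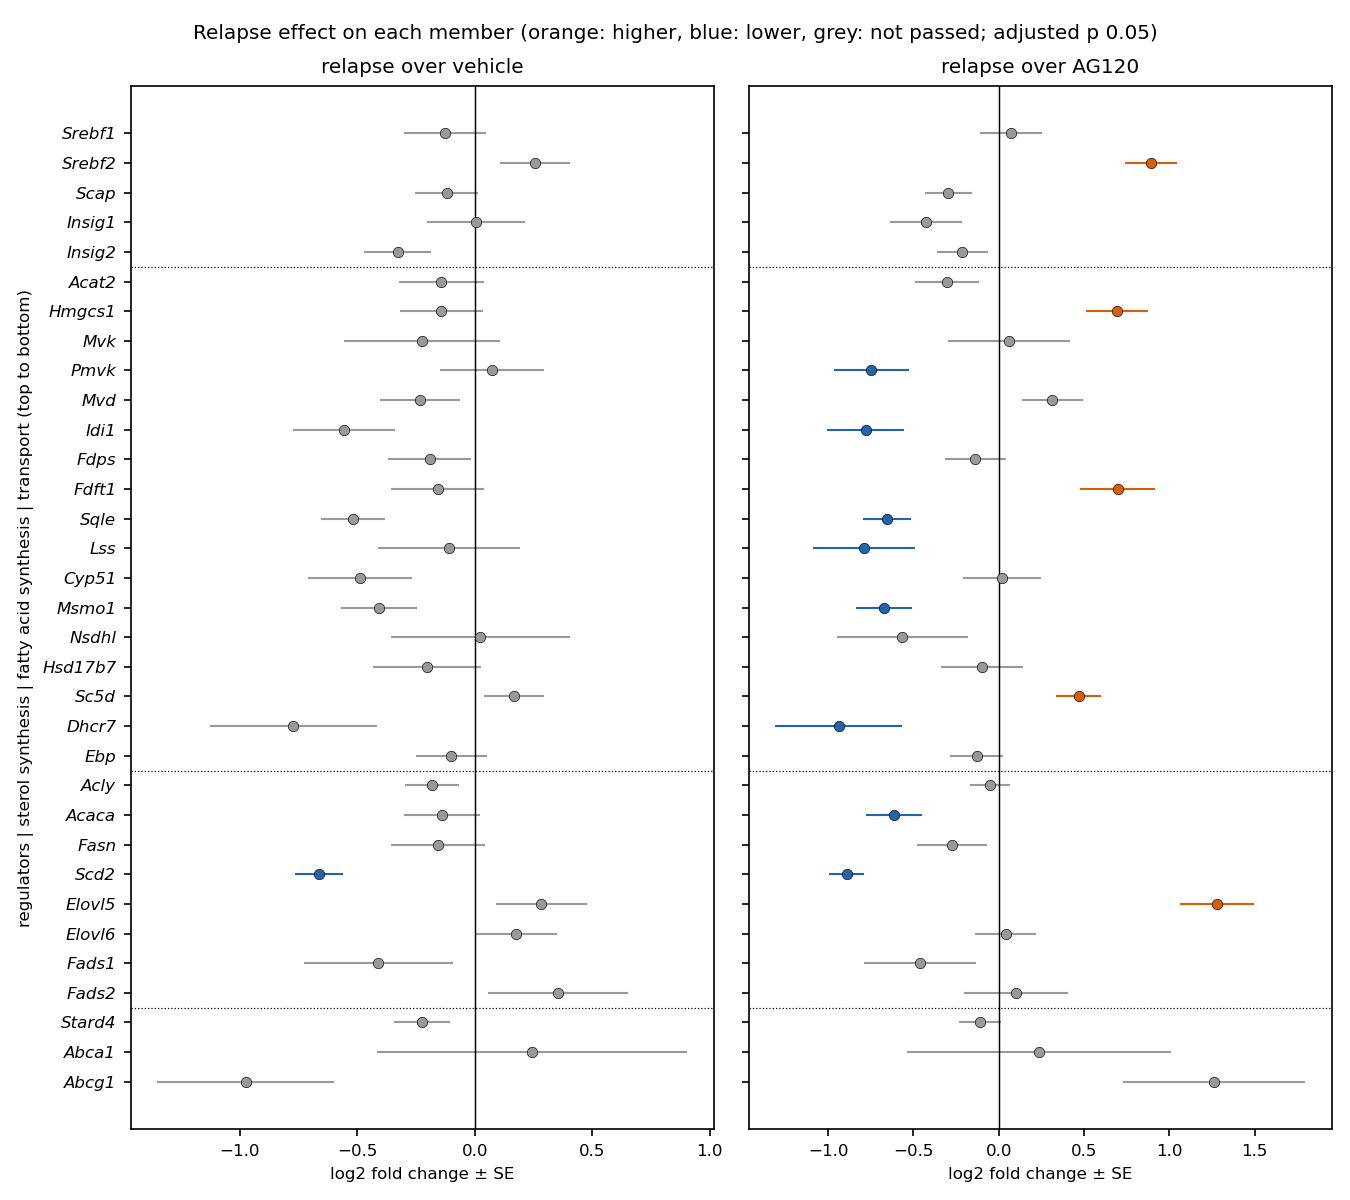
Log2 fold change of relapse over the mean of the vehicle groups (left) and over the mean of the AG120 groups (right) for 33 members, with bars of 1 SE, from the same edgeR fit; colours as for the AG120 effect, with Scd1 left out. On the left Scd2 alone is coloured, at −0.66; on the right Srebf2, Hmgcs1, Fdft1, Sc5d and Elovl5 are orange and 8 members are blue.

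Summed over the 17 enzymes, sterol synthesis stood at 219, 143, 179 and 238 CPM in relapse, at 199, 181 and 182 CPM in AG120 day 5 against 242, 255 and 230 CPM in vehicle day 5, and at 213 and 220 CPM in AG120 day 14 against 215 and 212 CPM in vehicle day 14. The AG120 and vehicle sums were apart at day 5 and side by side at day 14. Like sums at day 14 do not mean like members. Hmgcs1, the largest of the 17, averaged 27.5 CPM in AG120 day 14, against 49.8 CPM in vehicle day 14, while Pmvk and Sqle were higher. The 9 fatty acid genes, of which Scd2 is the largest, summed to 203, 193, 189 and 216 CPM in relapse, to 270, 255 and 239 CPM in AG120 day 5 against 221, 248 and 249 CPM in vehicle day 5, and to 280 and 290 CPM in AG120 day 14 against 265 and 256 CPM in vehicle day 14. These sums are descriptions and were not tested.

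Beyond the members, 34 other genes of lipid handling were read by the same test, of which 30 passed the filter. At day 5, 7 were higher and 7 were lower in AG120 than in vehicle, and at day 14, 6 were higher and 4 were lower. Of the 30, that is 23.3% in each direction at day 5, against 20.1% and 19.3% of all genes, and 20% and 13.3% at day 14, against 16.8% and 17.9% of all genes. None passed in the difference between the days or in relapse against vehicle. In relapse 6 were higher and 9 were lower than in the AG120 groups, or 20% and 30%, against 27.9% and 26.1% of all genes. These shares were near the background. Acsl5, which activates long-chain fatty acids, was at 89.9 to 97.3 CPM in AG120 day 5 against 35.9 to 41.9 CPM in vehicle day 5, and at 93.1 to 94.7 CPM in AG120 day 14 against 42.7 to 44.5 CPM in vehicle day 14. Its log2 fold changes were 1.28 ± 0.16 at day 5 and 1.11 ± 0.19 at day 14 (SE; adjusted p = 8.65e-06 and 0.000311). Tmem97, an endoplasmic reticulum protein that binds sterols, was at 55.1 to 65.0 CPM in AG120 day 5, against 24.6 to 31.6 CPM in vehicle day 5, and had a log2 fold change of 1.12 ± 0.33 at day 5 (SE; adjusted p = 0.0181). Lpcat3, which puts polyunsaturated chains into phospholipids, was at 114 to 120 CPM in AG120 day 14, against 51.6 to 56.1 CPM in vehicle day 14, a log2 fold change of 1.12 ± 0.18 at day 14 (SE; adjusted p = 0.000109).

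Soat1, which esterifies cholesterol for storage, was lower in AG120 at both days, with log2 fold changes of −1.50 ± 0.43 at day 5 and −2.67 ± 0.62 at day 14 (SE; adjusted p = 0.0166 and 0.00569), and was at 14.2 to 43.4 CPM in relapse. Its level was 5.38 to 7.31 CPM in AG120 day 5, against 14.5 to 18.9 CPM in vehicle day 5, and 2.39 to 4.20 CPM in AG120 day 14, against 18.9 to 24.9 CPM in vehicle day 14. Mbtps2 encodes the site-2 protease, which makes the last cut in the release of SREBP. It had a log2 fold change of −1.39 ± 0.34 at day 14 (SE; adjusted p = 0.00470) and stood at 3.00 to 4.78 CPM in AG120 day 14, against 9.26 to 10.5 CPM in vehicle day 14. Elovl7, another elongase, was at 0.152 to 0.336 CPM in AG120 day 5, against 1.76 to 2.14 CPM in vehicle day 5. Its AG120 levels lay under the 0.457 to 0.504 CPM that 3 counts were worth in those libraries, so they rest on very few counts.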

How the data were processed

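RNA of sorted cKit-positive, CD11b-negative cells was sequenced with the QuantSeq 3′ kit, per the labels' protocols, in 14 libraries of 5 groups. The authors deposited raw counts per Ensembl gene (52636 identifiers, 14 columns matched to libraries by name); 22670 had no count in any library. Software named in the submitters' processing notes was HISAT2 2.1.0, featureCounts in Subread 1.6.3, cutadapt 1.14, bcl2fastq 2.17.1.14, edgeR 3.28.1, limma 3.42.2 and R 3.6.2, with the build mm10. The sources used here do not state strandedness of counting, treatment of reads matching several places, or molecular identifiers. Gene symbols and GRCm38 positions came from a gene annotation that named 52489 identifiers.

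The quasi-likelihood fit of edgeR 4.0.16 in R 4.3.3 took all 14 libraries, with a term for each of the 5 groups and no covariate, robust dispersion and 9 residual degrees of freedom. Low genes were dropped by filterByExpr (minimum count 10), and TMM factors were 0.672 to 1.33. Benjamini-Hochberg adjustment ran over 11994 genes, with 0.05 as the threshold. SE is the absolute log2 fold change over the square root of F. The procedure was tested on simulated counts. Alternatives were RLE size factors, DESeq2 1.42.0, limma-voom (limma 3.58.1), no filter, ribosomal RNA gene models removed and a replicate block. Others were only the groups compared, and each library of those groups left out. With 2 libraries in the day 14 groups, a lone library is assumed to vary like the other groups. P-values weigh each difference against a spread between mice that was pooled over the 5 groups, relapse included.

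The members and lists were chosen with earlier results of these data known. Values in every library are given for Srebf1, Srebf2 and, in each branch and direction, the 3 members that passed with the biggest log2 fold change; other members, and Scd1's adipocyte markers, were named after their values were seen. No 2 libraries of the same group agreed within sampling noise, and pairs across groups were not examined.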

Additional observations from a re-analysis of the deposited data

Results flagged for a closer look

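In relapse, the group of 4 libraries, 33 members were examined for a library that stands apart by its gap to the nearest other library over the whole range of the group, and 2 exceeded the 95% critical value for 4 values. Scap, the SREBP escort protein, was lowest in replicate 3, at 11.4 CPM, with a gap ratio of 0.872. Sc5d was highest in replicate 2, at 13.7 CPM, with a gap ratio of 0.898. Chance alone flags about 5% of groups, so 2 among 33 is near what it gives.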

How the results depend on the processing

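Over the alternatives, 77 counts of members that passed stayed within 1.5 times the reported count and 8 did not. For single members, 456 values kept both their direction and their side of the threshold, 48 kept the direction but lost the call, and 5 changed sign. For the difference between the days, where 0 members passed, DESeq2 gave 1, no filter 2 and a fit on only the groups compared 4. For relapse against vehicle, where 1 passed, no filter gave 2, and a fit on only the groups compared, the replicate block and leaving out vehicle day 14 replicate 1 gave 0. At day 5 the fit on only the groups compared gave 12 against 6. The cause of these shifts was not tested. Leaving out single libraries gave 4 to 6 members at day 5, 4 to 6 at day 14 with Scd1 counted, 0 for the difference between the days, 0 to 1 for relapse against vehicle, 10 to 13 for relapse against AG120 and 0 for vehicle day 14 against day 5. The sign changes, none of them in a call, were Srebf2 in vehicle day 14 against day 5 (log2 0.00105 with no filter, and −0.0316 to 0.00334 with single libraries left out), Srebf1 in the difference between the days (−0.256 to 0.171 with single libraries left out; 0.00597 without AG120 day 14 replicate 2) and Srebf1 in relapse against AG120 (−0.0120 to 0.214 with single libraries left out, below 0 without relapse replicate 3). Over all genes, the count for the difference between the days was 112, and 173 with DESeq2, 31 with limma-voom, 374 with no filter and 869 on only the groups compared; for relapse against vehicle it was 22, and 120 with DESeq2, 267 with no filter and 7 on only the groups compared. For vehicle day 14 against day 5 it was 0, and 33 with no filter and 236 on only the groups compared. Leaving out single libraries gave 13 to 61 genes for the difference between the days, 8 to 117 for relapse against vehicle and 2752 to 3003 at day 14, where 4159 were called. Same-numbered AG120 and vehicle deviations from the group means correlated at 0.107, 0.0491 and 0.0171 at day 5 and 0.0685 at day 14. Pairs with unlike numbers correlated at −0.106 to 0.0770 at day 5 and −0.0685 at day 14. Deviations from means of so few libraries are tied to each other, so these values cannot decide whether equal numbers pair the libraries. With the replicate number as a block, Scd2 in relapse against vehicle had an adjusted p of 0.0708 and Fdft1 and Lss in relapse against AG120 lost their calls. With a median prior of 7.85 degrees of freedom and 2 libraries per day 14 group, members with few counts, such as Dhcr7, Lss, Abca1 and Scd1, are the least certain.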
